A study of Mus musculus with 18 samples.

Results

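The genes described here are 10 mouse genes of interleukin 2 signalling and its feedback inhibitors: Socs1, Socs2, Socs3, Cish, Il2ra, Il2rb, Il2rg, Jak3, Stat5a and Stat5b. They are 10 of the 56748 gene IDs in the count files, found by matching those IDs to gene symbols, and all 10 passed the filter that left 13690 genes for testing. The set was built around Socs1, because its level was lower on the switched diet than on normal diet while the high fat diet lay close to normal diet. The values of Socs1 are therefore given as a description, with no test. The other 9 genes were chosen for their place in the pathway, with earlier results of these data known, and were tested across all genes.

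The material was RNA from CD8 T cells sorted by flow cytometry from the spleens of WT mice and used fresh. The first group, ND, ate normal diet for 12 weeks. The second group, SW for switched diet, was moved to normal diet for the last 6 weeks, after 6 weeks of high fat feeding. The third group, HFD, ate high fat diet for all 12 weeks. Each diet had 6 libraries and all groups carried the same WT genotype. The strain, sex and age of the mice and any pooling of animals are not stated in the labels. Nothing in the labels ties a library to a mouse of its own. The p-values therefore rest on the spread between these samples, part of which may be technical.

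Interleukin 2 is a growth factor for activated T cells. Its receptor has an alpha chain (Il2ra, CD25) that raises affinity, a beta chain (Il2rb, CD122) that is shared with interleukin 15, and the common gamma chain (Il2rg), which is shared with interleukins 4, 7, 9, 15 and 21. The kinases JAK1 and JAK3 bound to the beta and gamma chains phosphorylate STAT5A and STAT5B, which enter the nucleus and bind DNA at the motif TTCNNNGAA. STAT5 induces Cish and several Socs genes, whose proteins bind receptors or kinases and damp the signal, a classic negative feedback. In resting CD8 T cells, interleukins 7 and 15 are the members of this cytokine family best known for survival and homeostatic division.

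Promoter sequences are shown for Cish, the gene of the set that passed the test, and for Socs1, around which the set was built. They are also shown for Irf1 and Il7r, pathway genes that passed too and had a window holding the STAT letters. Windows ran from 250 bases before to 50 after each RefSeq start (GRCm38.p6). At least 1 window was matched for 8 of the 10 genes, with 10 windows in all. Capitals mark TTCNNNGAA, the letters of a STAT site, in all but the Socs1 stretch. In Socs1 they mark GAAA, any 2 bases, GAAA, the core of the run recognised by interferon regulatory factors, searched on both strands. The stretches are chr9:107296654-107296683 (plus strand) for Cish, chr16:10785537-10785786 (minus strand) for Socs1, chr11:53769914-53769943 (plus strand) for Irf1 and chr15:9529999-9530028 (minus strand) for Il7r.
Cish: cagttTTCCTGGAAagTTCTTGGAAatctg
Socs1: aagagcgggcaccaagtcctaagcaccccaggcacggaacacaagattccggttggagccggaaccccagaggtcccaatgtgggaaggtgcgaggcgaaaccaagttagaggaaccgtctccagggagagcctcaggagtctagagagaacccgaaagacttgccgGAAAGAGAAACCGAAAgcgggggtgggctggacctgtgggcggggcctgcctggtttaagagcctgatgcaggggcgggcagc
Irf1: acagcctgatTTCCCCGAAatgatgaggcc
Il7r: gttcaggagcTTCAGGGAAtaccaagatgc

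The Cish stretch holds TTCNNNGAA at 2 places, the first at the RefSeq start itself. In GENCODE M21 it lies in exon 1, in the 5′ UTR, of the longer transcript Cish-201. The Il7r stretch lies before the RefSeq start but inside an annotated transcript, Il7r-203, between its exons. Of 32851 windows of the same length, 2726 (8.30%) held TTCNNNGAA and 150 (0.457%) held it at 2 or more places. The Socs1 stretch holds no TTCNNNGAA and 2 overlapping copies of that GAAA pair, which 1131 of all windows (3.44%) held at least once and 74 (0.225%) at 2 or more places. Among the other windows of the set, only that of Socs3 held TTCNNNGAA, at chr11:117969512-117969520, between exons of the annotated transcript Socs3-202. Of the 7 other pathway genes that passed in the diet comparisons, 5 had a window. TTCNNNGAA was held by 1 of 2 windows of Irf1 and by the 1 window of Il7r. The windows of Socs4, Il4ra and Prdm1 held none. These matches describe letters and do not show binding.

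Total counts ran from 11947339 to 16398340 per library. HFD replicate 4 stood apart: 17570 genes had a count in it, against 18963 to 20155 in the other 17 libraries, and its score on the first principal component was 55.0 against -8.83 to 6.31. On the second component, replicates 1 and 2 of every diet scored 5.58 or more and replicates 3 to 6 scored 4.59 or less, so values are also given within these 2 sets of replicates. CD8 identity genes, such as Cd8a at 1369 to 1635 CPM, were high in every library. Summed over 6 such genes the level was 4579 to 5131 CPM. Cd4 stayed between 0.0801 and 1.32 CPM, with means of 0.274 CPM in ND, 0.510 in SW and 0.835 in HFD. Levels are counts scaled by library size (CPM, with TMM factors) unless FPKM is named. In bulk RNA of this kind, fewer cells that express a gene and less of its RNA per cell cannot be told apart.

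Compared per gene length, in the FPKM values of the authors, the 10 genes spanned a wide range. The common gamma chain Il2rg stood highest at 154 ± 7.34 FPKM (SD, n = 18 libraries), followed by the beta chain Il2rb at 131 ± 19.2. Il2rg was above Il2rb in 17 of 18 libraries, and Il2rb was above the kinase Jak3 in all 18. Jak3, at 52.9 ± 9.72 FPKM, and Socs3, at 50.1 ± 9.95, did not separate beyond their spread, with Jak3 higher in 12 of 18 libraries. Stat5b followed at 36.7 ± 2.55 FPKM, Socs1 at 16.7 ± 2.96 and Stat5a at 11.7 ± 1.13, and each order held in at least 16 of 18 libraries. Cish, at 1.39 ± 0.337 FPKM, was lower than these 7 in every library. Socs2, at 0.357 ± 0.159, and the high-affinity chain Il2ra, at 0.320 ± 0.0993, lay lowest, with Socs2 the higher in 9 of 18. The signalling chains and the kinase were thus well above the high-affinity chain on every diet.

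**Figure D1:**
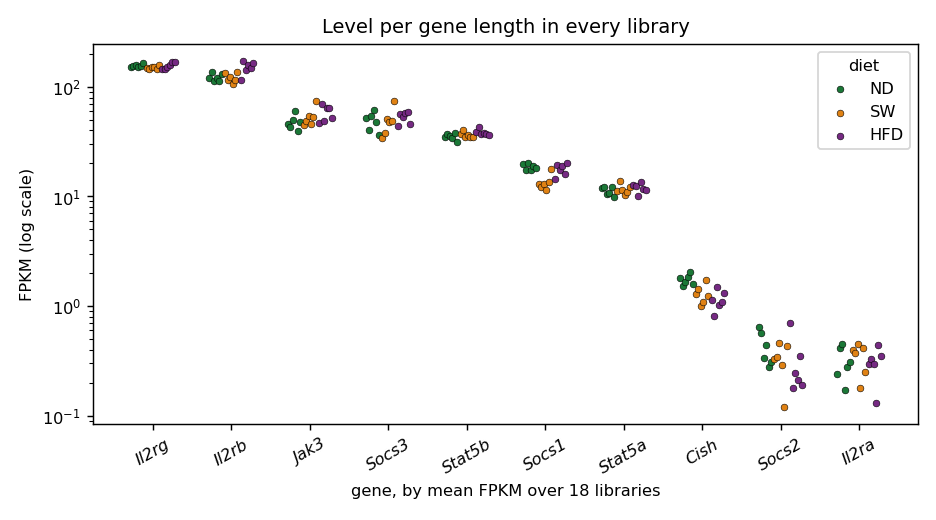
Deposited FPKM (vertical axis, log scale) of each of the 10 genes in each of the 18 libraries, coloured by diet and ordered by mean. Il2rg and Il2rb lie above 100 FPKM in every library, and Socs2 and Il2ra lie below 1 FPKM.

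Across diets, Cish was the only gene of the 9 that passed the test in any of the 3 comparisons, and it was lower on high fat diet. For HFD against ND edgeR called 1 of 9 genes, where 1.62% of all 13690 genes were called. For SW against ND it called 0 of 9 (0.0146% of all genes), and DESeq2 also called 0. For SW against HFD it called 0 of 9 (0.124% of all genes), and DESeq2 called 1. In the test for any difference among the 3 diets 0 of 9 passed (0.898% of all genes), and DESeq2 called 2. At an unadjusted p under 0.05 these 4 tests held 3, 1, 1 and 2 of the 9 genes, beside 14.9%, 6.81%, 11.1% and 13.3% of all genes. The beta chain Il2rb came next, higher on high fat diet than on either other diet but short of the threshold. The median log2 difference over all 10 genes was 0.04 for HFD against ND, -0.01 for SW against ND and -0.06 for SW against HFD. The medians over all genes tested were 0.01, 0.00 and 0.00. Those of the 10 genes include Socs1, whose values on these diets chose the set, so they are descriptions. The comparisons share libraries in pairs (ND in the first and second, for example), so their values are not independent of each other.

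**Figure D2:**
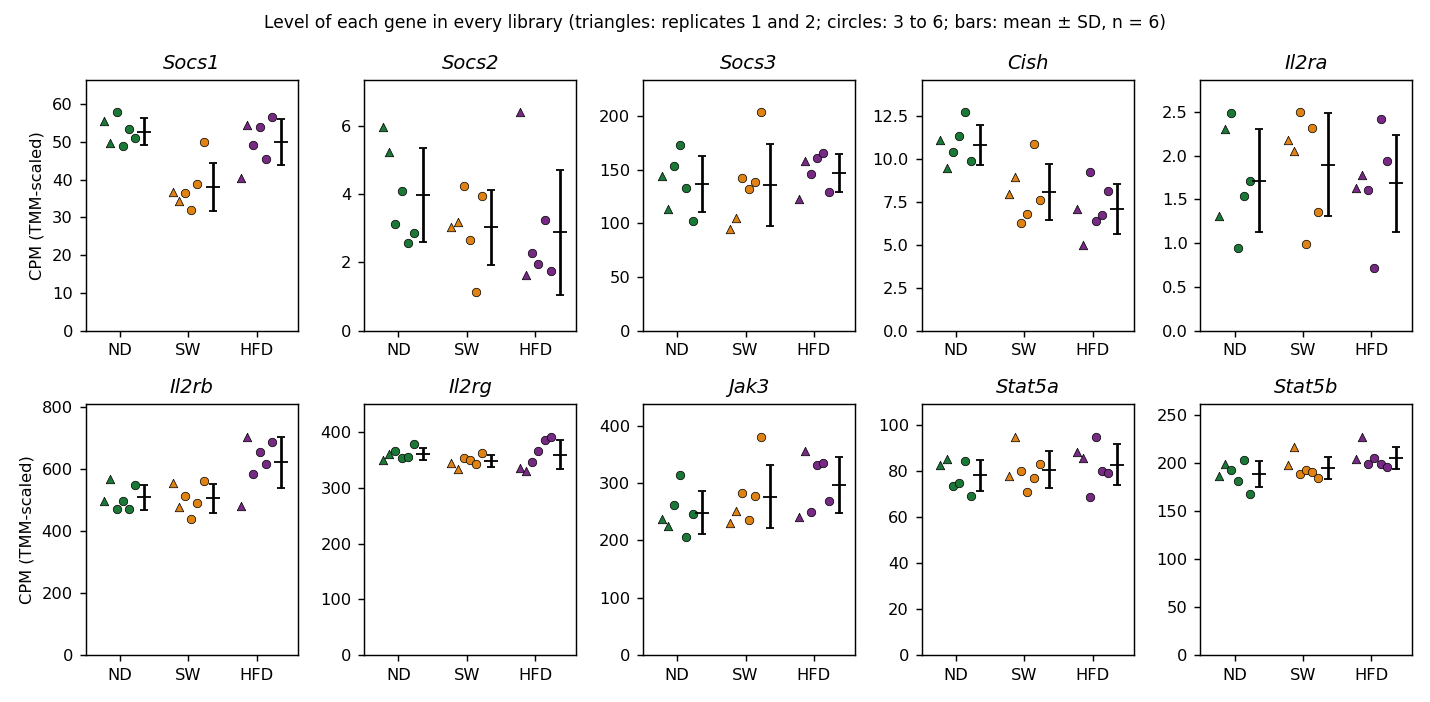
CPM (vertical axis, from 0) of each of the 10 genes in each library by diet, with the mean and SD of 6 libraries as bars. The 6 HFD libraries of Cish lie between 4.97 and 9.22 CPM, below the 6 ND libraries at 9.49 to 12.7.

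Socs1 (chr16:10782240-10785536, minus strand) encodes an inhibitor that binds JAK kinases directly and is known as a brake on interferon gamma and common gamma chain cytokines in T cells. Its lowest, median and highest levels were 48.9, 52.2 and 57.8 CPM in ND, 32.0, 36.5 and 49.98 CPM in SW, and 40.4, 51.5 and 56.5 CPM in HFD. In SW, 5 libraries lay at 38.8 CPM or less, below every library of the other diets, and only replicate 6, at 49.98 CPM, lay among the ND and HFD values. The means were 52.7 ± 3.49 CPM in ND (SD, n = 6), 38.0 ± 6.28 in SW and 49.95 ± 6.19 in HFD. On the log2 scale SW differed from ND by -0.47, SW from HFD by -0.39 and HFD from ND by -0.08. Within replicates 1 and 2 the difference of SW from ND was -0.57 and within replicates 3 to 6 it was -0.42. Both sets are part of the values that chose Socs1, so they add no separate support.

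Cish (chr9:107296026-107302784, plus strand) encodes CIS, a STAT5-induced protein that is best known in CD8 T cells and natural killer cells for limiting T cell receptor and interleukin 15 signals. It was found at 9.49, 10.8 and 12.7 CPM (lowest, median, highest) in ND, 6.27, 7.77 and 10.9 CPM in SW, and 4.97, 6.90 and 9.22 CPM in HFD, from raw counts of at least 64 reads per library. Every HFD library lay below every ND library, a separation that 1.67% of all genes showed in this comparison, while SW overlapped both. Cish fell by 0.61 ± 0.14 (SE, as for all log2 differences below) in HFD against ND, a fold of 0.657 (edgeR quasi-likelihood adjusted p = 0.0280). In SW against ND the difference was -0.42 ± 0.14 (adjusted p = 0.400), with 5 of 6 SW libraries below the ND mean. SW and HFD differed by 0.19 ± 0.14 (95% interval -0.11 to 0.48, adjusted p = 0.655).

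The Cish call in HFD against ND sat close to the threshold. Leaving out HFD replicate 4 gave -0.58 (adjusted p = 0.0524), and it was also lost without ND replicate 4 (0.0554), ND replicate 5 (0.0709) or HFD replicate 2 (0.0634). Within replicates 3 to 6 the difference was -0.55 (adjusted p = 0.106) and within replicates 1 and 2 it was -0.77 (adjusted p = 0.420). The antisense and pseudogene models over Cish held next to no reads: Gm17041 had 0 in every library and Gm17040 at most 2.

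**Figure D3:**
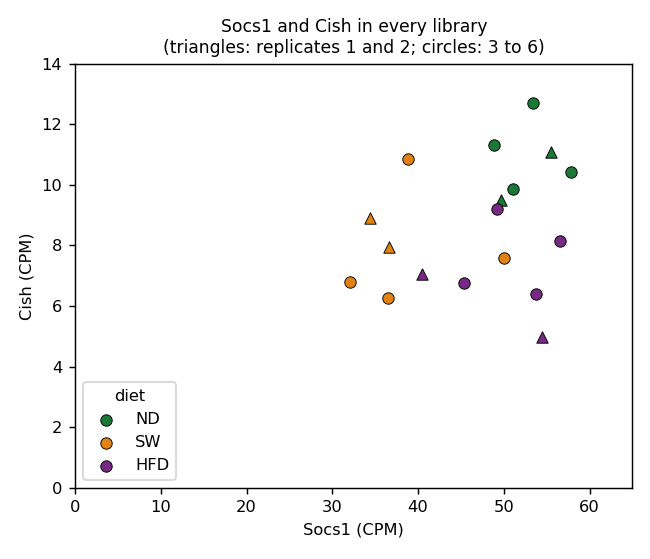
Cish (vertical axis, CPM) against Socs1 (horizontal axis, CPM) in the 18 libraries, coloured by diet, with triangles for replicates 1 and 2. ND libraries are high for both genes, and 5 of 6 SW libraries lie at 38.8 CPM of Socs1 or less. HFD libraries lie at 40.4 to 56.5 CPM of Socs1. Cish spans 4.97 to 9.22 CPM in HFD and 6.27 to 10.9 CPM in SW.

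The mean levels of the 2 inhibitors thus had different orders over the diets. Socs1 was lowest in SW (38.0 CPM on average), with HFD within 5.26% of ND in the fit. Cish was lowest in HFD (7.09 ± 1.47 CPM), with SW at 8.07 ± 1.65 and ND at 10.8 ± 1.16. For Cish, however, SW and HFD overlapped and their difference did not pass (adjusted p = 0.655). The difference between the 2 genes' patterns was not tested, since Socs1 was chosen by its own.

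Socs3 (chr11:117966079-117970047, minus strand) encodes an inhibitor that docks on the interleukin 6 receptor chain and is induced mainly through STAT3. Its lowest, median and highest levels were 102, 138 and 173 CPM in ND, 94.8, 135 and 204 CPM in SW, and 123, 152 and 166 CPM in HFD. The diets overlapped broadly, and SW replicate 6, the library that was also highest for Socs1 among SW, held the highest value. HFD differed from ND by 0.11 ± 0.17 (adjusted p = 0.821) and SW from ND by 0.00 ± 0.17 (adjusted p = 0.999).

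Socs2 (chr10:95385362-95417180, minus strand) encodes the inhibitor best known for restraining growth hormone signalling. It was scarce, at 2.56 to 5.95 CPM in ND (median 3.61), 1.12 to 4.23 CPM in SW (median 3.11) and 1.63 to 6.38 CPM in HFD (median 2.11). The ranges overlapped, and HFD replicate 1 was the highest of all 18 libraries. HFD differed from ND by -0.47 (95% interval -1.14 to 0.20, adjusted p = 0.534), an interval wide enough to hold a halving. Without HFD replicate 1 the difference was -0.88 (adjusted p = 0.107). Its mean was 4.23 ± 1.89 CPM in replicates 1 and 2 and 2.81 ± 0.968 in replicates 3 to 6.

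Among the receptor chains, Il2rb (chr15:78479256-78495271, minus strand) showed the widest diet difference. The lowest, median and highest levels were 469, 495 and 568 CPM in ND, 438, 500 and 559 CPM in SW, and 479, 635 and 703 CPM in HFD. In HFD, 5 of 6 libraries lay above every ND and SW library, and HFD replicate 1, at 479 CPM, lay low among them. HFD exceeded ND by 0.29 ± 0.08 on the log2 scale, a fold of 1.22 (adjusted p = 0.0558). SW differed from HFD by -0.30 ± 0.08 (adjusted p = 0.128) and from ND by -0.01 ± 0.08 (95% interval -0.17 to 0.15).

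Neither Il2rb difference passed the test. Among fits with other methods, designs or sets of libraries, 3 of 11 called the HFD against ND difference. Whether that difference passed also depended on single libraries. Without HFD replicate 1 it was 0.35 (adjusted p = 0.00424), and without HFD replicate 4 it was 0.27 (adjusted p = 0.106). Within replicates 3 to 6 HFD exceeded ND by 0.35 (adjusted p = 0.00722), and within replicates 1 and 2 by 0.16 (adjusted p = 0.915). Il2rb is also a gene of natural killer cells, whose 5 markers summed to 19.0 to 29.0 CPM in ND, 17.9 to 34.1 in SW and 15.3 to 34.8 in HFD. Mean levels in ND and HFD were 16.4 and 19.2 CPM for Klre1 and 2.00 and 2.77 for Klra8. They were 2.37 and 1.90 CPM for Klrb1c, 1.52 and 1.51 for Klra4 and 0.564 and 0.153 for Ncr1. Ncr1 was at most 1.12 CPM and at 0 in 3 libraries. None of the 4 markers tested was called in any comparison. The part of natural killer cells in the Il2rb difference was not tested.

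Il2rg (chrX:101264378-101268255, minus strand), the chain on which every receptor of the family depends, was the steadiest of the set. It measured 350 to 379 CPM in ND (median 359), 334 to 363 in SW (median 348) and 331 to 392 in HFD (median 357), with all diets overlapping. HFD differed from ND by 0.00 ± 0.05 (95% interval -0.10 to 0.09, adjusted p = 0.976). SW differed from ND by -0.05 ± 0.05 (adjusted p = 0.946).

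Il2ra (chr2:11642807-11693193, plus strand), the CD25 chain that appears on activated and regulatory T cells, was near the floor of detection. Its levels were 0.943 to 2.48 CPM in ND, 0.993 to 2.49 in SW and 0.717 to 2.42 in HFD, with as few as 11 reads in a library. The diets overlapped throughout, and the 95% interval for HFD against ND, -0.62 to 0.57 is wide at this depth. Foxp3, which marks regulatory T cells, was at a like level of 0.677 to 1.79 CPM. The 5 markers of CD4 and regulatory T cells summed to 19.8 to 30.1 CPM in ND, 20.9 to 30.9 in SW and 20.1 to 34.9 in HFD. Mean levels in ND, SW and HFD were 16.3, 17.5 and 16.8 CPM for Ikzf2 and 7.22, 5.62 and 6.30 for Zbtb7b. They were 1.06, 0.867 and 1.41 CPM for Cd40lg and 0.955, 0.998 and 1.10 for Foxp3, and those of Cd4 are given above. The part of CD4 and regulatory T cells in the Il2ra level was not tested.

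Jak3 (chr8:71676296-71690575, plus strand), the kinase bound to the gamma chain, ranged over 206, 242 and 314 CPM (lowest, median, highest) in ND, 231, 264 and 381 in SW, and 241, 299 and 355 in HFD. The diets overlapped. HFD differed from ND by 0.26 ± 0.13 (95% interval -0.03 to 0.54, adjusted p = 0.393). Insl3, which overlaps Jak3 on the same strand in GENCODE M21, held 5.23 to 16.0 CPM, and reads shared by the pair cannot be divided here.

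Stat5b (chr11:100780731-100850724, minus strand) is the STAT5 form that dominates in lymphocytes. It measured 168 to 204 CPM in ND (median 190), 185 to 217 in SW (median 192) and 196 to 228 in HFD (median 202). All 6 HFD libraries lay above the ND mean but the ranges overlapped, and the difference of 0.12 ± 0.05 did not pass (adjusted p = 0.276). Stat5a (chr11:100859351-100885169, plus strand), its close relative, measured 68.8 to 85.1 CPM in ND, 70.7 to 94.7 in SW and 68.6 to 94.6 in HFD, with a difference of 0.08 ± 0.07 for HFD against ND (adjusted p = 0.645). Stat5a meets Stat3 on the opposite strand, and without a stated strand setting reads of that overlap cannot be told apart. The 2 genes are near-identical in long coding stretches, so the counting of reads shared between them is uncertain.

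**Figure D4:**
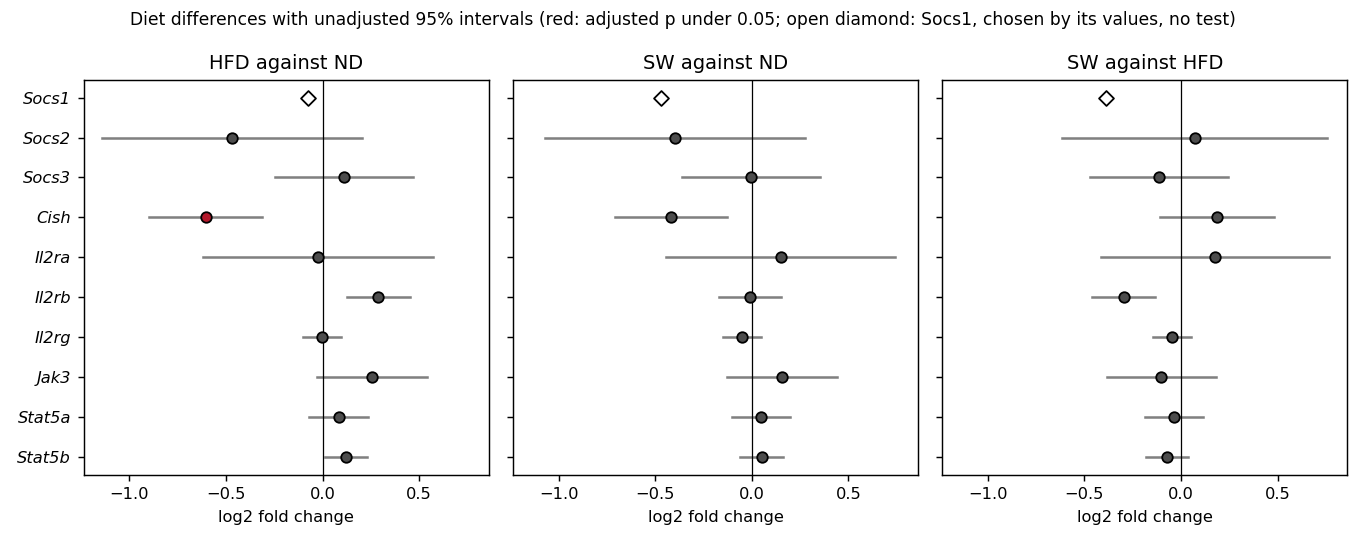
Log2 fold change (horizontal axis) of each of the 10 genes in the 3 diet comparisons, with unadjusted 95% intervals for the 9 tested genes and an open diamond for Socs1. Only Cish in HFD against ND (-0.61) passed the test across all genes, and Il2rb (0.29) in the same comparison had an adjusted p of 0.0558.

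The rest of the pathway was read from 9 lists with 96 genes, of which 90 were tested. These lists, too, were chosen with earlier results of these data known. Their counts beside the shares of all genes are therefore descriptions. For HFD against ND, 7 passed, 4 of them higher in HFD and 3 lower, where 0.665% of all genes were called higher and 0.957% lower. At an unadjusted p under 0.05 there were 28 of the 90, beside 14.9% of all genes. For SW against ND 0 of 90 passed by edgeR, with 11 at an unadjusted p under 0.05 (6.81% of all genes) and 0 by DESeq2. For SW against HFD 0 passed by edgeR, with 20 at an unadjusted p under 0.05 (11.1% of all genes) and 2 by DESeq2. The libraries of HFD and ND did not overlap for 5 of the 90 genes, where this held for 1.67% of all genes. The median log2 difference of the 90 genes was 0.02 for HFD against ND, beside 0.01 over all genes.

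**Figure D5:**
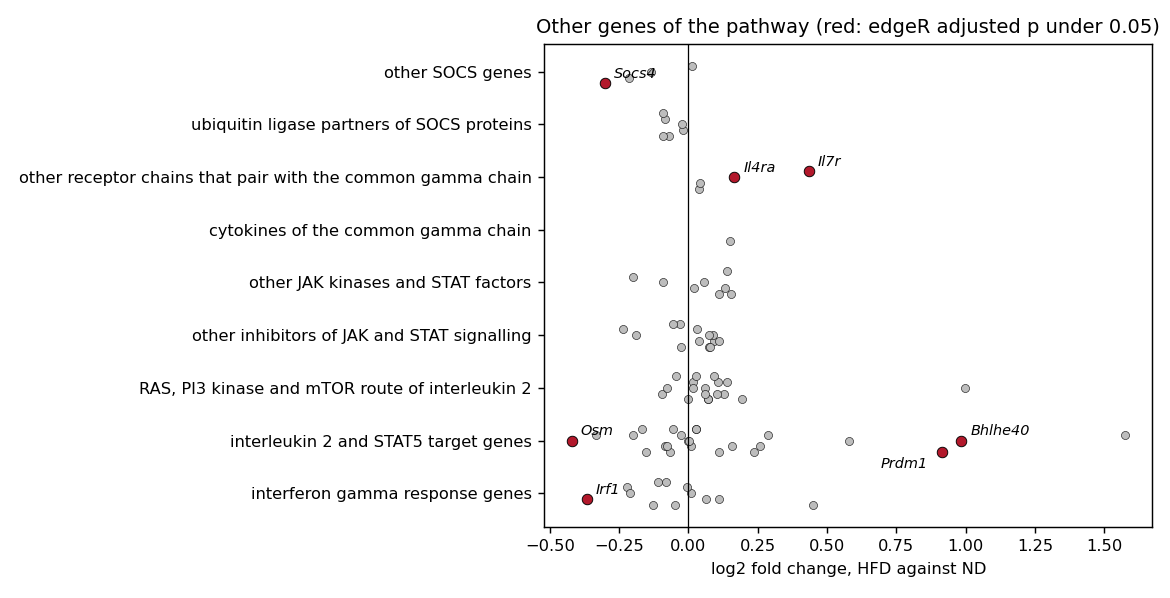
Log2 fold change of HFD against ND (horizontal axis) for the 90 tested pathway genes, by list (vertical axis), with the 7 genes that passed the test in red. Il7r, Il4ra, Prdm1 and Bhlhe40 lie to the right of 0, and Socs4, Osm and Irf1 to the left.

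Of the 4 other SOCS genes tested, 1 was lower in HFD and 0 higher, with a median difference of -0.17. Over all genes 0.957% were called lower and 0.665% higher. At an unadjusted p under 0.05 there were 2 of these 4, beside 14.9% of all genes. Socs4, a relative that is best known for restraining epidermal growth factor signalling, measured 91.2, 96.7 and 102 CPM (lowest, median, highest) in ND, 80.1, 88.8 and 108 in SW, and 68.1, 76.9 and 87.3 in HFD. Every HFD library lay below every ND library. Socs4 fell by 0.30 ± 0.07 on the log2 scale (edgeR adjusted p = 0.0229), and without HFD replicate 4 the difference was -0.27 (adjusted p = 0.0507). Of the 6 partners that build SOCS proteins into ubiquitin ligases, such as Cul5 and Elob, 0 passed, where 1.62% of all genes were called. Their 6 differences lay between -0.09 and -0.02, with 0 of 6 at an unadjusted p under 0.05.

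Of the receptor chains that pair with the gamma chain, 4 of 5 were tested and 2 were higher in HFD. Over all genes 0.665% were called higher. At an unadjusted p under 0.05 there were 2 of the 4, beside 14.9% of all genes. Il7r, the interleukin 7 receptor of naive and memory T cells, was at 549, 569 and 650 CPM in ND, 565, 643 and 715 in SW, and 634, 801 and 952 in HFD. The lowest HFD library lay inside the ND range and the median lay above it. Il7r rose by 0.43 ± 0.09 in HFD against ND (adjusted p = 0.0173), and the call held in all 18 fits that left out 1 library.

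Il4ra, the interleukin 4 receptor chain, measured 222, 228 and 247 CPM in ND, 233, 238 and 251 in SW, and 240, 260 and 270 in HFD. The ND and HFD ranges overlapped at their edges. Il4ra rose by 0.17 ± 0.04 with an adjusted p of 0.0498, a call that held in only 2 of 18 fits that left out 1 library, those without ND replicate 2 or HFD replicate 5. Without HFD replicate 4 its difference was 0.16 (adjusted p = 0.0833). Il15ra, which presents interleukin 15 to the beta and gamma chains, differed by 0.04 ± 0.11 (adjusted p = 0.922). The cytokines themselves were scarce: of 6, only Il15 passed the filter, and it was not called.

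Of 8 other JAK and STAT genes, 13 other inhibitors and 18 genes of the RAS, PI3 kinase and mTOR route, 0 passed in HFD against ND. The share called over all genes was 1.62%. At an unadjusted p under 0.05 there were 3, 2 and 5 in these lists, beside 14.9% of all genes. Jak1, the kinase bound to Il2rb, was at 986 to 1127 CPM in ND and 1093 to 1256 CPM in HFD, a difference of 0.15 ± 0.05 (adjusted p = 0.124). Ptpn2, a phosphatase that removes phosphate from JAK1, JAK3 and STAT5, differed by 0.03 ± 0.05 (adjusted p = 0.849).

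Of 24 genes induced by interleukin 2 and STAT5, 2 were higher in HFD than in ND, 1 was lower and 21 did not pass. Over all genes 1.62% were called. At an unadjusted p under 0.05 there were 12 of the 24, beside 14.9% of all genes. The differences of HFD from ND lay between -0.42 and 1.57, with a median of 0.01. In SW against ND 0 of 24 passed, with 7 at an unadjusted p under 0.05 (6.81% of all genes). In SW against HFD 0 passed, with 9 at an unadjusted p under 0.05 (11.1% of all genes). Prdm1, the gene of the effector cell factor BLIMP-1, measured 3.05, 3.55 and 4.01 CPM in ND, 2.58, 4.54 and 4.84 in SW, and 3.91, 6.88 and 8.77 in HFD. In HFD only the lowest library fell within the ND range. Prdm1 rose by 0.91 ± 0.19 in HFD against ND (adjusted p = 0.0158), and the call held in all 18 fits that left out 1 library.

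Bhlhe40, a factor that supports cytokine production and mitochondrial function in T cells, measured 2.07, 3.54 and 5.50 CPM in ND, 2.89, 3.55 and 4.99 in SW, and 6.01, 6.42 and 13.0 in HFD. Every HFD library lay above every ND and every SW library, a separation that 1.67% of all genes showed against ND and 0.782% against SW, in either direction. Bhlhe40 rose by 0.98 ± 0.22 in HFD against ND (adjusted p = 0.0213), a call lost without HFD replicate 2, the highest library (0.0634), ND replicate 5 (0.0515) or ND replicate 6 (0.0512). SW differed from HFD by -1.01 ± 0.22 (adjusted p = 0.0525) and from ND by -0.03 ± 0.23.

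Osm, a STAT5-induced cytokine of the interleukin 6 family, measured 17.6, 19.2 and 21.5 CPM in ND, 13.2, 15.1 and 17.4 in SW, and 11.7, 13.6 and 18.9 in HFD. Every SW library lay below every ND library, which 0.716% of all genes showed in that comparison, and the HFD range reached into that of ND. Osm fell by 0.42 ± 0.11 in HFD against ND (adjusted p = 0.0391), and without HFD replicate 4 the adjusted p was 0.0708. The call was also lost without ND replicate 1, 2, 3 or 5 or HFD replicate 2, 5 or 6, with adjusted p up to 0.0883. In SW against ND the difference was -0.34 ± 0.11 (adjusted p = 0.354).

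The best known survival and growth targets did not pass in HFD against ND. Bcl2, which protects T cells from apoptosis, differed by -0.15 ± 0.07 (adjusted p = 0.327). Pim1, a survival kinase, differed by -0.03 ± 0.08, and Myc, a driver of growth, by 0.11 ± 0.07 (adjusted p = 0.466).

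SOCS1 also limits interferon gamma signalling. Of 12 genes of that response 1 was lower in HFD than in ND, 0 were higher and 11 did not pass, where 1.62% of all genes were called. In SW against ND, where Socs1 was lower, 0 of 12 passed, with a median difference of -0.02. There, 1 of 12 had an unadjusted p under 0.05, beside 6.81% of all genes. A link of these genes to Socs1 was not tested. Irf1, a factor that interferon gamma induces and whose promoter stretch is printed above, measured 253, 273 and 287 CPM in ND, 188, 238 and 267 in SW, and 183, 214 and 232 in HFD. Every HFD library lay below every ND library, and SW lay between and overlapped both. Irf1 fell by 0.37 ± 0.07 on the log2 scale in HFD against ND (adjusted p = 0.00561), and without HFD replicate 4 it differed by -0.38 (adjusted p = 0.00913). That call, too, held whichever library was left out. In SW against ND its difference was -0.21 ± 0.07 (adjusted p = 0.371).

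The 7 called pathway genes kept their direction within both sets of replicates. Within replicates 3 to 6, 4 of them passed, and within replicates 1 and 2, with 2 libraries a diet, 0 passed. Without HFD replicate 4 the count of called pathway genes was 4. Markers of several other cell types lay higher in HFD beside these calls, though edgeR called none of them in HFD against ND. The 7 genes of monocytes, macrophages and neutrophils summed to 18.2 to 26.9 CPM in ND, 16.5 to 28.4 in SW and 27.0 to 34.4 in HFD. Erythroid markers summed to 14.3 to 40.1 CPM in ND, 29.7 to 86.1 in SW and 11.5 to 336 in HFD. Dendritic cell markers summed to 39.5 to 90.4 CPM in ND, 40.8 to 69.9 in SW and 58.1 to 117 in HFD. Plasma cell markers summed to 1.62 to 6.92 CPM in ND, 3.63 to 11.1 in SW and 4.77 to 23.6 in HFD, nearly all from Jchain, while Mzb1 was at 0 in 12 libraries. At an unadjusted p under 0.05 in HFD against ND were 4 of 6 tested monocyte, macrophage and neutrophil markers, 6 of 6 erythroid and 2 of 5 dendritic markers. So were 1 of 1 plasma cell markers and 1 of 5 CD4 and regulatory T cell markers, beside 14.9% of all genes. Of natural killer, B and gamma delta T cell markers there were 0 of 4, 0 of 4 and 0 of 3. Their part in the Cish, Il2rb and pathway differences was not tested.

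The genes whose levels over the libraries were most like Socs1 were ranked by Pearson's r of log2 CPM over the 12 libraries of replicates 3 to 6, among 9770 genes. The leading 5 were Rrm2, a subunit of ribonucleotide reductase (r = 0.89, Spearman's rho = 0.81), Nomo1 (r = 0.88, rho = 0.88), Zdhhc21 (r = 0.87, rho = 0.85), the centromere gene Mis18a (r = 0.86, rho = 0.61) and the ribosome assembly gene Eif6 (r = 0.85, rho = 0.85). Over the 6 libraries of replicates 1 and 2 the same genes had r between 0.08 and 0.51, so the likeness was weaker there. Cish had r = 0.38 with Socs1 in replicates 3 to 6 and -0.07 in replicates 1 and 2. These values describe libraries that also share diet, and the leading genes were picked for them.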

How the data were processed

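The authors deposited raw counts and FPKM values per gene and library. Per the submitters' processing notes, reads went through fastp, and GRCm38 and mm10 are listed as builds. Aligner, counter, annotation and strand: not given in the sources used here. FPKM was checked to equal the count times a gene and a library factor. Of 56748 gene IDs, 52073 matched GENCODE M21.

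Counts of all 18 libraries were tested with edgeR 4.0.16 (R 4.3.3; TMM, filterByExpr, robust quasi-likelihood F test, diet only), with Benjamini-Hochberg adjustment over 13690 genes and a threshold of 0.05; this test gave every adjusted p that carries no other name. Alternatives included DESeq2 1.42.0 and limma 3.58.1 on log2(FPKM + 0.1) and log2(FPKM + 1). The tests were tried on simulated counts. The genes and lists were chosen with earlier results of these data known. Named in the text are the 10 genes, list genes called in any comparison and the 5 most like Socs1. So are 9 further genes named whatever their values (Jak1, Il7r, Il15ra, Il4ra, Ptpn2, Bcl2, Pim1, Myc, Irf1). Ifng was added beside the interferon gamma response list. CD4 T cells and B cells were not analysed here.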

Additional observations from a re-analysis of the deposited data

Results flagged for a closer look

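A library far from the other 5 of its diet was found in 5 of the 75 groups of 6 looked at, where chance gives about 1 in 20. For Socs2, SW replicate 5 was low at 0.34 log2 CPM, with the next library at 1.48. For Il2ra, HFD replicate 4 was low at -0.22, with the next at 0.81; that is the library that stood apart overall. Stat5b was high in HFD replicate 2 at 7.83, with the next at 7.68, and Bhlhe40 was high in the same library at 3.72, with the next at 2.80. Ptpn2 was high in HFD replicate 6 at 6.41, with the next at 6.19.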

How the results depend on the processing

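The 8 differences named as called in HFD against ND (Cish and 7 pathway genes) kept their direction under the alternatives run; single genes beyond those named were not followed. edgeR called 222 genes in HFD against ND, 2 in SW against ND, 17 in SW against HFD and 123 for any diet difference. Counts below keep that order. DESeq2 gave 479, 61, 112 and 438. Adding a factor for the 2 replicate sets gave 535, 22, 116 and 444. Replicates 1 and 2 alone gave 5, 0, 2 and 5, and replicates 3 to 6 alone gave 5 for SW against ND. With no filter on low counts SW against ND gave 31, SW against HFD 53 and any difference 216. Relative log expression size factors gave 1 for SW against ND. With only the 2 diets compared, SW against ND gave 19 and SW against HFD 0. limma on log2(FPKM + 0.1) gave 0 for SW against ND, 1 for SW against HFD and 77 for any difference, and on log2(FPKM + 1) it gave 0 for SW against ND and 1 for SW against HFD. Leaving out each library in turn gave 89 to 301, 0 to 16, 0 to 44 and 62 to 220.

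Of the 9 genes other than Socs1, 1 was called in HFD against ND, and 0 in the other tests. In HFD against ND, DESeq2 called 2 (Il2rb, adjusted p = 0.0198, beside Cish), and replicates 1 and 2 alone and limma on log2(FPKM + 0.1) called 0. In SW against HFD, DESeq2 and replicates 3 to 6 alone called 1. For any difference, DESeq2 called 2, and no filter, the replicate factor and replicates 3 to 6 alone each called 1. Leaving out each library in turn gave 0 to 2 in HFD against ND and 0 to 1 in SW against HFD and for any difference. Of the pathway genes, 7 were called in HFD against ND, 0 in SW against HFD and 4 for any difference. DESeq2 called 14, 2 and 10, the replicate factor 14, 3 and 9, and no filter 2 in SW against HFD. Replicates 1 and 2 alone called 0 in HFD against ND and 0 for any difference, where replicates 3 to 6 called 2 and limma 0 (FPKM + 0.1) or 1 (FPKM + 1). Leaving out each library gave 4 to 8, 0 to 1 and 2 to 5. The causes were not tested; the fits of 1 replicate set hold fewer libraries.

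Whether the replicate numbers pair the samples is not given in the labels and was left unresolved. Same-numbered libraries deviated together with r from -0.03 to 0.22 (median 0.08, against -0.01 for other pairs). Every same-numbered pair lies within 1 replicate set, while the other pairs also cross the sets. This contrast therefore cannot tell the number from the set. Within replicates 1 and 2, r was 0.12 to 0.22 for pairs of the same number and 0.05 to 0.16 for pairs of different numbers. The r was over 0.1 in 7 of 18 pairs, and 5 of 18 libraries correlated best with one of their own number. With a replicate block edgeR called 598, 49, 138 and 469 genes, 2 of the 9 genes in HFD against ND and 1 for any difference, and 15, 4 and 10 pathway genes. With the block Il2rb had an adjusted p of 0.0479.

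Depth limits the scarce genes most: Il2ra and Socs2 had as few as 11 and 16 reads in a library.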
